A study of Mus musculus with 9 samples.

Results

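The genes described here are 51 G protein-coupled receptors for hormones and local mediators, together with orphan members of the superfamily, in 3T3-L1 cells. They were taken by gene symbol from a list drawn up with earlier results of these arrays in view, and the list holds Grpr, Npy1r and Gpr176 because they were among the largest falls seen in these data. Those 3 are therefore described by their values, with no p-value. Counts past the threshold against vehicle in the main and the blocked fit are also given without them. Other receptor counts, such as those on leaving out arrays or of arrays that do not overlap, include them. Of the 51, 39 were measured by a probe set assigned to that gene alone, out of 22180 genes so measured. Each of the 39 had 1 such probe set, so that the rule of taking the brightest left no choice. Lpar6 and Gpr39 were covered by probe sets shared with a neighbouring gene and were not used. Ptger1, Adra1d, Adra2a, Adrb1, Adrb3, Adora1, Adora2a, Adora2b, F2rl1 and Ednra matched no probe set name in the annotation used here. The beta-adrenergic and adenosine receptors among the 51 were therefore not analysed.

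The arrays held 9 samples of 3T3-L1 cells, a mouse fibroblast line of clonal origin that can be turned into fat cells in culture, in 3 groups of 3. The first group, called vehicle, had no inducer, and its labels do not say whether it received an siRNA. The second group had scrambled siRNA and then 6 h of 0.5 mM IBMX with 1 µM dexamethasone. The third had an siRNA against CD24, a small surface glycoprotein, and the same 6 h of inducers. In both siRNA groups 100 nmol was transfected. Cells of all 3 groups, vehicle included, were held for 48 h after confluence. The comparison of scrambled siRNA with vehicle bears on the inducers plus transfection, and the comparison of CD24 siRNA with scrambled siRNA bears on CD24 under the inducers. The labels number the samples 1 to 3 within each group and do not say whether they were separate cultures, so the p-values given here reflect the scatter among these arrays, which may be technical.

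G protein-coupled receptors span the membrane, bind a ligand outside and switch on a heterotrimeric G protein inside. Gs raises cyclic AMP, Gi lowers it, and Gq raises calcium through phospholipase C. IBMX blocks the phosphodiesterases that break cyclic AMP down, and dexamethasone is a glucocorticoid; both are parts of the usual cocktail that starts adipocyte differentiation. Receptors for prostaglandins, lysophospholipids and catecholamines are known to act on that differentiation.

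Values are log2 expression. The median of the whole table was 6.51, and array medians lay between 6.47 and 6.56. Of 9 markers of pre-adipocytes and fibroblasts on the table, 8 had values high enough to be tested. Among them Dlk1 (mean over 9 arrays 12.3), Pdgfra (11.2) and Col1a1 (11.6) were far above that median. Of 6 markers of mature fat cells, Adipoq (5.51), Plin1 (6.33), Lep (5.69) and Cidec (5.70) were below it, while Fabp4 (9.60) and Retn (6.64) were above. Of 5 macrophage markers, Ptprc (4.70) and Adgre1 (5.82) were below and Csf1r (6.97), Cd68 (8.26) and Cd14 (8.61) above. Of 5 endothelial markers Cdh5 (6.75) alone was above, with Pecam1 at 6.31, and of 3 epithelial markers Krt14 (6.83) alone, with Epcam at 4.86. Of 8 pre-adipocyte and fibroblast markers tested, Pdgfra (difference -1.04, limma adjusted p 0.0185) and Pdgfrb (-1.66, adjusted p 0.00154) fell with scrambled siRNA plus inducers and none rose; with the replicate number as a block 5 fell, adding Col1a1 (-0.45, limma adjusted p 0.0132), Col1a2 (-0.59, 0.00275) and Col3a1 (-0.51, 0.012). The mean of the 9 markers of that list on the table was 10.3 to 10.4 on vehicle arrays, 9.80 to 9.95 on scrambled arrays and 9.86 to 9.95 on CD24 siRNA arrays. The mean of 5 macrophage markers was 6.65 to 6.79, 6.73 to 7.17 and 6.87 to 7.08 in the same order, with none past the threshold; with the block Cd14 rose with scrambled siRNA (0.54, limma adjusted p 0.023). All 5 muscle markers were tested and Des alone fell (-0.70, limma adjusted p 0.0195). Their mean was 7.153 to 7.572 on vehicle arrays, 7.125 to 7.355 on scrambled arrays and 7.161 to 7.444 on CD24 siRNA arrays. It thus overlapped between the groups and lay above the table's median. The part of these shifts in the receptor results was not tested. In these bulk samples fewer cells of a kind and less RNA per cell cannot be told apart.

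The siRNA target itself, Cd24a (probe set 17233022), read 8.88, 9.92 and 9.49 with vehicle, 11.2, 11.7 and 11.8 with scrambled siRNA plus inducers, and 10.1, 10.2 and 11.7 with CD24 siRNA plus inducers. The array labelled CD24 siRNA replicate 3 was only 0.10 below its scrambled partner, while replicates 1 and 2 were 1.04 and 1.57 below theirs. The mean difference was -0.90 with a limma adjusted p of 1 (unadjusted 0.0638, or 0.0118 with the block). It passed the threshold in neither fit. A dimmer probe set of the gene, 17240606 (mean 7.79), had a mean difference of -1.42. Results of the CD24 comparison are therefore also given without that array.

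Sequence upstream of 4 of the receptors is shown because IBMX acts through cyclic AMP, whose transcription factor CREB binds the cyclic AMP response element. They are S1pr2, the only member past the threshold with the whole element in its window, Grpr, with the shorter core, and Gprc5b and Ackr3, the members that rose. Each run is the 250 bases before the annotated start, 5′ to 3′ on the gene's strand, from RefSeq (GRCm38.p6); capitals mark TGACGTCA in S1pr2 and TGACG in Grpr, and there are no capitals in the others because neither was found.
S1pr2, chr9:20976794-20977043, minus strand: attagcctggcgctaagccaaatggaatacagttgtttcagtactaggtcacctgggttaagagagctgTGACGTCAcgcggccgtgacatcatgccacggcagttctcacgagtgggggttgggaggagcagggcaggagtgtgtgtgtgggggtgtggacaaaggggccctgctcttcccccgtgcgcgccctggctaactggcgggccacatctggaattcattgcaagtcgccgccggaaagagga
Grpr, chrX:163549737-163549986, minus strand: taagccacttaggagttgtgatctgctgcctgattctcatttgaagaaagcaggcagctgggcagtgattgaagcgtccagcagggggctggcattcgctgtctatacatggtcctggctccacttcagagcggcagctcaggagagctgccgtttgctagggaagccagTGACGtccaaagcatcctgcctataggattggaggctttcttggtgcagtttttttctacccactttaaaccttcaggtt
Gprc5b, chr7:118995212-118995461, minus strand: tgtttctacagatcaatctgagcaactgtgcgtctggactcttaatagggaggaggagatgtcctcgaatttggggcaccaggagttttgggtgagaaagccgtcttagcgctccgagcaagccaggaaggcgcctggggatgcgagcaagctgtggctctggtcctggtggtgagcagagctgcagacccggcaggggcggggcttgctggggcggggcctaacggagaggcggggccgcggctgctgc
Ackr3, chr1:90203730-90203979, plus strand: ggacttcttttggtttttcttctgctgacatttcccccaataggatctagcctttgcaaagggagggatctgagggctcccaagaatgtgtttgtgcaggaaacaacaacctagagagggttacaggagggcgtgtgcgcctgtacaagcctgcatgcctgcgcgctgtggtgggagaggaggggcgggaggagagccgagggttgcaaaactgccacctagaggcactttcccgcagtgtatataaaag
The search covered windows of 300 bases, 250 before and 50 after the start, for TGACG on either strand (CGTCA on the other) and for the palindrome TGACGTCA, which contains both. The element lay 181 bases before the start of S1pr2, and the core lay 80 bases before the start of Grpr and 7 bases after that of Gpr176. Grpr and Gpr176 were on the list because of their falls, so no count of matches among changed members is given. Over the 48 windows of 32 measured members, 14.6% held the core, against 20.8% of all 32851 windows of the table; 2.08% held the whole element, against 1.79%. These matches describe letters in a window and not sites of binding.

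Levels of the 39 measured receptors fell on both sides of the table's median. The mean over 9 arrays was below it for 16 (41% of members, against 44.8% of all genes) and at or above it for 23. Values were above the median on every array for 17 members and below it on every array for 12. Bdkrb1, a bradykinin receptor, lay just below with a mean of 6.50, and Hrh1, a histamine receptor, just above with 6.58.

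**Figure D1:**
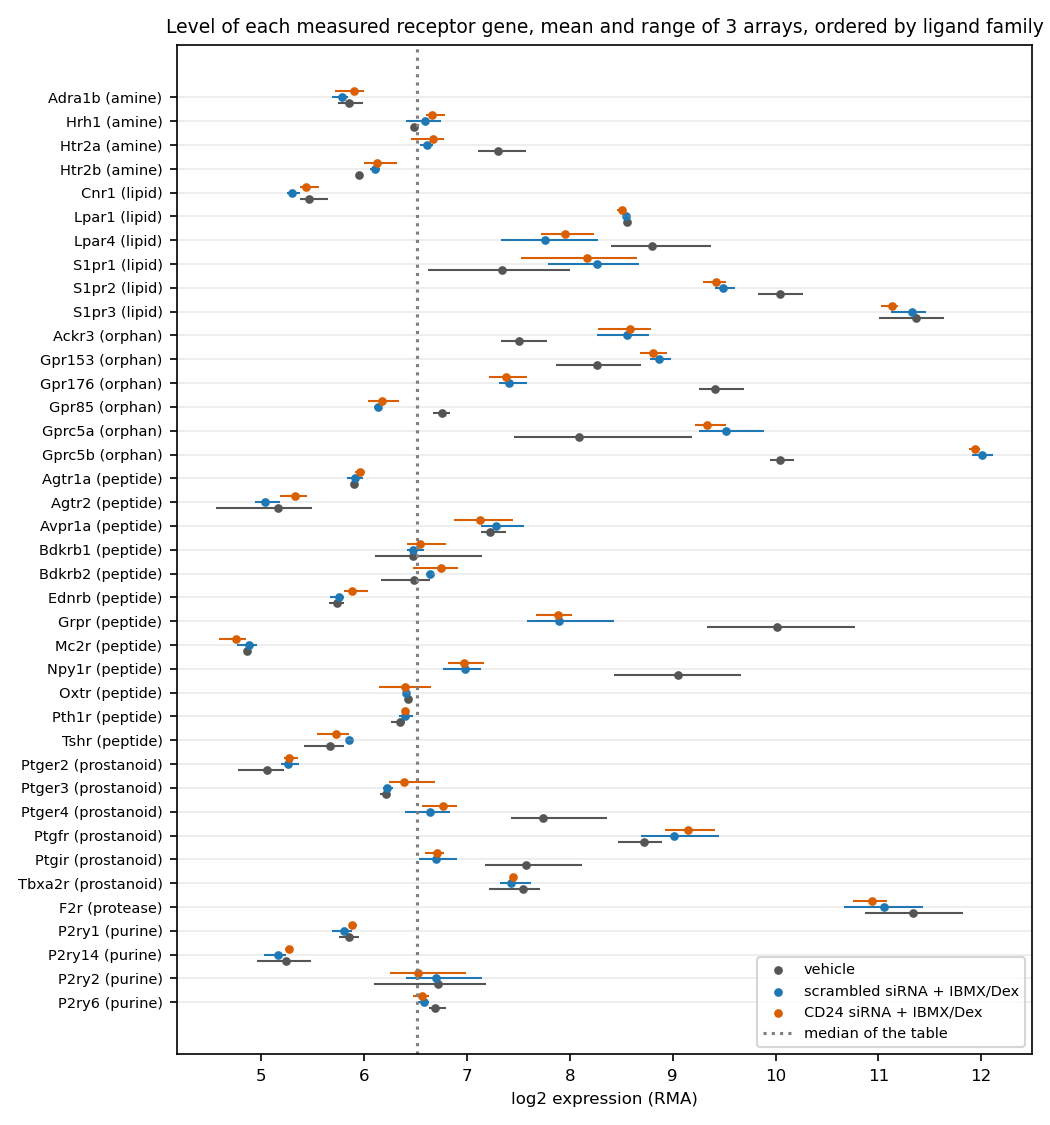
Group mean (point) and range of 3 arrays (line) of log2 expression for the 39 measured receptor genes, ordered by ligand family, with the table's median of 6.51 as a dotted line. Grey is vehicle, blue scrambled siRNA plus IBMX/Dex and orange CD24 siRNA plus IBMX/Dex; blue and orange lie close together for most genes, and 16 genes have a mean below the line.

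For a test a gene needed 3 or more of its 9 values at or above the table's median, which 25 of the 39 had and 14 did not. Gpr85 met that through its vehicle arrays alone. The 14 below were Ptger2 (mean 5.19) and Ptger3 (6.28) for prostaglandin E2, Adra1b (5.85) for noradrenaline, Ednrb (5.79) for endothelin, Agtr1a (5.92) and Agtr2 (5.17) for angiotensin, Oxtr (6.41) for oxytocin, Htr2b (6.06) for serotonin, P2ry1 (5.85) and P2ry14 (5.22) for nucleotides, Cnr1 (5.40) for cannabinoids, Pth1r (6.38) for parathyroid hormone, Mc2r (4.83) for corticotropin and Tshr (5.75) for thyrotropin. Their differences between scrambled siRNA plus inducers and vehicle ran from -0.167 to 0.206, and those between CD24 siRNA plus inducers and vehicle from -0.11 to 0.212. No order or change was read from values this low.

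With scrambled siRNA and 6 h of inducers, 2 of the 25 tested receptors rose and 8 fell relative to vehicle. The 8 include Grpr, Npy1r and Gpr176, which had been picked on this contrast, and Gpr85, which was tested only through its higher vehicle arrays. Without those genes 2 of 21 rose, Gprc5b and Ackr3, and 4 fell, Ptger4, Ptgir, S1pr2 and Htr2a. Across all 12630 genes tested 6.94% passed the same threshold (limma, Benjamini-Hochberg adjusted p under 0.05), 3.33% upward and 3.6% downward. The median size of the difference was 0.60 over the 25 (0.29 over the 21) and 0.19 over all genes tested, and the median signed difference was -0.03 and 0.02. Over all 39 measured members with no filter the median size was 0.157, against 0.143 over 22180 genes. The counts depended on single arrays. Without scrambled replicate 3 the number past the threshold was 4 in place of 10, and without scrambled replicate 1 it was 6. Of those 4, 3 were the picked genes, which were listed for large falls in these data, so their passing adds no support. Gprc5b was the only other.

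The replicate numbers paired the arrays, and a fit with the number as a block called more: 5 rose and 9 fell of the 25, or 5 and 5 of the 21, where 23.3% of all genes passed, 11.9% upward and 11.4% downward. Arrays of the groups did not overlap for 4 receptors that were higher (12.8% of all genes tested) and for 9 that were lower (12.4%), the picked genes and Gpr85 among them. With CD24 siRNA and inducers the corresponding counts against vehicle were 2 higher and 6 lower of 25, or 2 and 2 of the 21, where 6.65% of all genes passed, 2.92% upward and 3.73% downward. With the block they were 5 and 9, or 5 and 5 of the 21, where 22.4% passed, 10.4% upward and 12.1% downward. Arrays did not overlap for 5 higher (12.1%) and 10 lower (13.7%), again with those genes among the lower. Leaving out the array labelled CD24 siRNA replicate 1, or that labelled replicate 3, put 4 past the threshold in place of 8. Gprc5b was again the only one of them not picked for its fall. Both contrasts use the same vehicle arrays, so their values are set side by side and not counted as separate evidence.

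**Figure D2:**
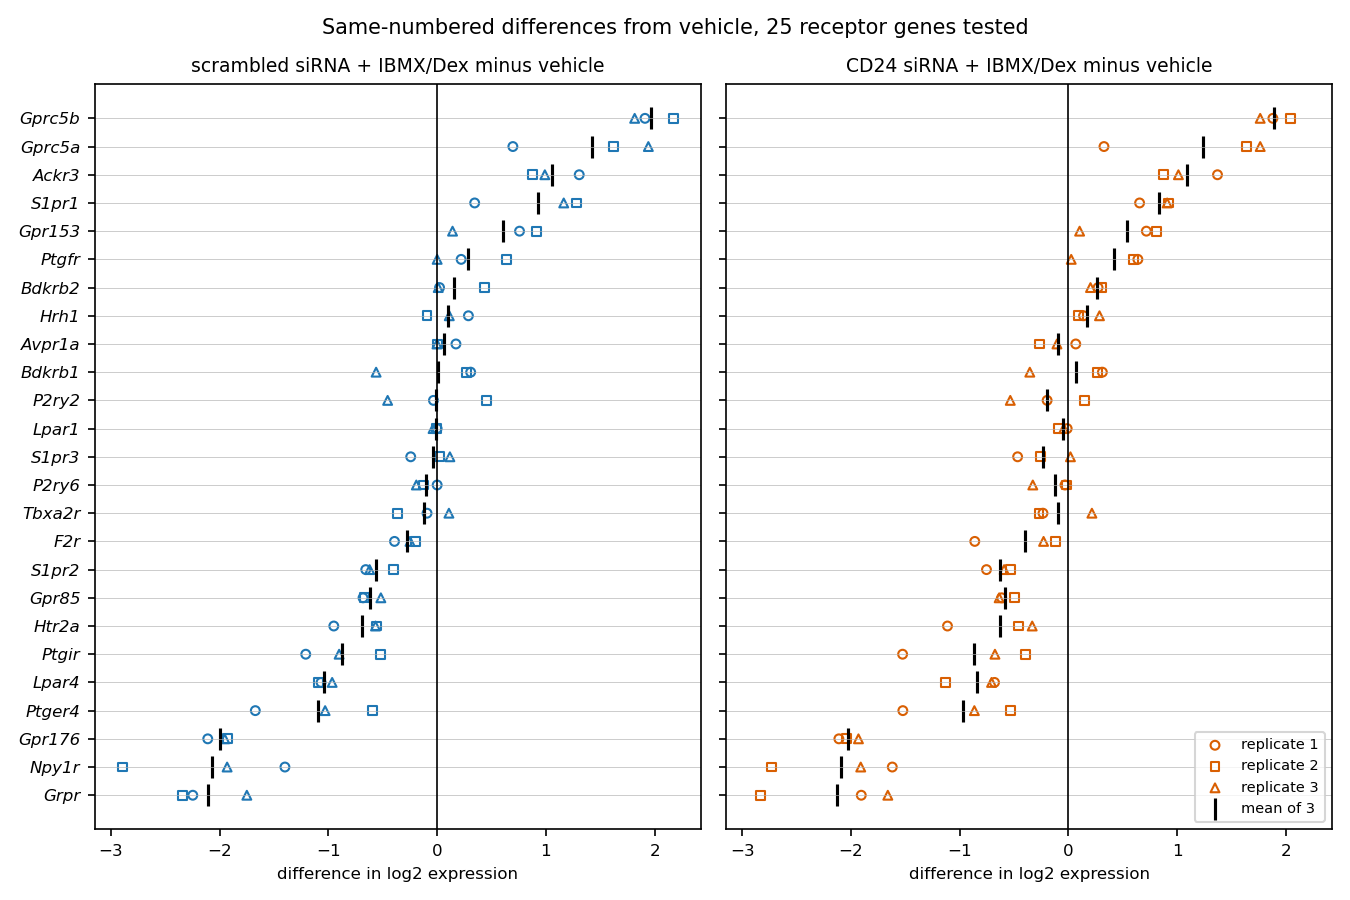
Difference in log2 expression from the vehicle array of the same replicate number for the 25 tested receptor genes (open symbols, replicates 1 to 3; bar, mean), for scrambled siRNA (left) and CD24 siRNA (right), both with IBMX/Dex. Gprc5b lies at the top with a mean of 1.97 at left, and Grpr at the bottom with -2.11; both panels use the same vehicle arrays.

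Among receptors for peptides, 5 of 12 measured were tested. Grpr, the receptor for gastrin-releasing peptide (Gq-coupled, probe set 17545910), read 9.93, 10.8 and 9.33 with vehicle, 7.68, 8.43 and 7.58 with scrambled siRNA plus inducers, and 8.03, 7.94 and 7.67 with CD24 siRNA plus inducers. Every treated array was below every vehicle array. The differences were -2.11 (4.32-fold lower) and -2.13 (4.38-fold lower), and the same-numbered differences with scrambled siRNA were -2.25, -2.34 and -1.75. Npy1r, the Gi-coupled neuropeptide Y receptor, read 8.43, 9.66 and 9.07 with vehicle, 7.03, 6.77 and 7.14 with scrambled siRNA, and 6.81, 6.93 and 7.16 with CD24 siRNA. The vehicle array that was highest, replicate 2, had the lowest scrambled partner. Its differences were -2.08 (4.21-fold lower) and -2.09 (4.25-fold lower).

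The other peptide receptors tested lay close to vehicle. Bdkrb1, the bradykinin receptor induced in injury, differed by 0.01 and 0.07 with scrambled and CD24 siRNA, and Bdkrb2, the constitutive one, by 0.16 and 0.26. Avpr1a, a vasopressin receptor, differed by 0.06 and -0.10. None of the 3 passed the threshold in either fit, and 95% intervals of their differences with scrambled siRNA reached from -0.57 to 0.58 for Bdkrb1.

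Among prostanoid receptors, 2 of 4 tested fell with scrambled siRNA plus inducers, and both couple to Gs. Of all genes tested 3.6% fell in that contrast. Ptger4, a receptor for prostaglandin E2 (probe set 17315718), read 8.36, 7.43 and 7.42 with vehicle, 6.69, 6.84 and 6.39 with scrambled siRNA plus inducers, and 6.84, 6.90 and 6.56 with CD24 siRNA plus inducers. The groups did not overlap, and vehicle replicate 1 stood well above the other vehicle arrays. The difference with scrambled siRNA was -1.10 ± 0.25 (SE, n = 3 against 3, 2.14-fold lower, limma adjusted p 0.0331, blocked 0.00293). With CD24 siRNA it was -0.97 ± 0.25 (1.96-fold lower), with a limma adjusted p of 0.0512, or 0.00555 with the replicate block. The call with scrambled siRNA was lost without any 1 of the scrambled arrays or without CD24 siRNA replicate 1 or 2 (largest adjusted p 0.118), and also with no filter (0.0522) or with the compared groups alone (0.0874).

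Ptgir, the prostacyclin receptor (probe set 17474217), read 8.11, 7.17 and 7.43 with vehicle, 6.91, 6.65 and 6.53 with scrambled siRNA, and 6.59, 6.78 and 6.76 with CD24 siRNA. Again the groups did not overlap and vehicle replicate 1 was highest. The difference with scrambled siRNA was -0.88 ± 0.22 (SE; 1.84-fold lower, limma adjusted p 0.0469), a call lost when any array except vehicle replicate 2 was left out (largest adjusted p 0.153), with no filter (0.0731), with arrays centred on their medians (0.06) and with the compared groups alone (0.117). With CD24 siRNA it was -0.86 (1.82-fold lower, limma adjusted p 0.0511, blocked 0.00938). The blocked limma adjusted p with scrambled siRNA was 0.00843. Between CD24 and scrambled siRNA the 95% interval of the difference was -0.43 to 0.69 for Ptger4 and -0.48 to 0.51 for Ptgir, so the different calls against vehicle do not show different responses.

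Ptgfr, the Gq-coupled receptor for prostaglandin F2-alpha, which is known to hold back adipocyte differentiation, read 8.47, 8.81 and 8.90 with vehicle, 8.69, 9.45 and 8.90 with scrambled siRNA, and 9.11, 9.41 and 8.92 with CD24 siRNA. Its differences were 0.29 (95% interval -0.20 to 0.77) and 0.42 (-0.06 to 0.91), with limma adjusted p of 0.484 and 0.292. The CD24 siRNA arrays all lay above the vehicle arrays, the nearest pair only narrowly. Tbxa2r, the thromboxane receptor, differed by -0.12 and -0.09 and passed in neither fit.

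Of 5 receptors for lysophospholipids tested, S1pr2 fell in both contrasts. Of all genes tested 3.6% fell with scrambled siRNA and 3.73% with CD24 siRNA. S1pr2, a receptor for sphingosine 1-phosphate (probe set 17524578), read 10.3, 9.83 and 10.0 with vehicle, 9.61, 9.43 and 9.42 with scrambled siRNA, and 9.52, 9.30 and 9.45 with CD24 siRNA. Every treated array was below the lowest vehicle array. The differences were -0.56 ± 0.13 (SE; 1.47-fold lower, limma adjusted p 0.0383) and -0.63 ± 0.13 (1.54-fold lower, adjusted p 0.0265). The first call was lost without any array except vehicle replicate 2 (largest adjusted p 0.133), with no filter (0.0559), with centring (0.061) and with the compared groups alone (0.0957). The second was lost without vehicle replicate 1 or 3 or any CD24 siRNA array (largest 0.0979), and with the compared groups alone (0.0626). On all 9 arrays the blocked limma adjusted p was 0.00356 with scrambled siRNA and 0.00215 with CD24 siRNA.

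S1pr1, the Gi-coupled sphingosine 1-phosphate receptor, read 8.00, 7.39 and 6.62 with vehicle, 8.35, 8.67 and 7.78 with scrambled siRNA, and 8.66, 8.31 and 7.53 with CD24 siRNA. Replicate 3 was lowest in every group, so the groups overlapped while all same-numbered differences were positive. Its differences were 0.93 (1.91-fold, limma adjusted p 0.201, and in the fit with the block 0.00393) and 0.83 (1.78-fold, adjusted p 0.259, blocked 0.00693). The blocked call held when any 1 replicate number was left out of all groups.

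Lpar4, a receptor for lysophosphatidic acid, behaved likewise in the other direction, with 8.40, 9.37 and 8.62 with vehicle, 7.33, 8.28 and 7.65 with scrambled siRNA, and 7.72, 8.24 and 7.91 with CD24 siRNA. Replicate 2 was highest in every group, and each treated array was below every vehicle array. The differences were -1.04 (2.06-fold lower, limma adjusted p 0.0708, blocked 0.000339) and -0.84 (1.79-fold lower, adjusted p 0.135, blocked 0.00117). The blocked call held without any 1 replicate number. Lpar1, the Gi-coupled lysophosphatidic acid receptor known for opposing adipocyte differentiation, ran from 8.54 to 8.58 with vehicle and differed by only -0.01 and -0.05. S1pr3, another sphingosine 1-phosphate receptor, differed by -0.03 and -0.23, and neither passed in either fit.

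Among receptors for amines, 2 of 4 measured were tested and 1 fell, in both contrasts. Of all genes tested 3.6% fell with scrambled siRNA and 3.73% with CD24 siRNA. Htr2a, the Gq-coupled serotonin receptor (probe set 17301926), read 7.57, 7.23 and 7.11 with vehicle, 6.62, 6.67 and 6.54 with scrambled siRNA, and 6.46, 6.78 and 6.78 with CD24 siRNA. The treated arrays lay near the table's median and below all vehicle arrays. The differences were -0.69 ± 0.14 (SE; 1.62-fold lower, limma adjusted p 0.0246) and -0.63 ± 0.14 (1.55-fold lower, adjusted p 0.0353). The first call was lost without any 1 of the scrambled arrays (largest adjusted p 0.0942) and with the compared groups alone (0.0592). The second was lost with those alone (0.0838), with no filter (0.0517), and with the block when replicate 1 of all groups was left out (0.082). It was also lost without 7 of the 9 arrays in turn, all but vehicle replicate 3 and scrambled replicate 1 (largest 0.114). On all 9 arrays the blocked limma adjusted p was 0.0078 with scrambled siRNA and 0.0119 with CD24 siRNA.

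Hrh1, the Gq-coupled histamine receptor, differed by 0.10 and 0.17 with limma adjusted p of 0.661 and 0.423. The nucleotide receptors P2ry2 (-0.01 and -0.19) and P2ry6 (-0.11 and -0.12), both Gq-coupled, passed in neither fit. F2r, the thrombin receptor, read 11.8, 10.9 and 11.3 with vehicle and ranged from 10.7 to 11.4 on the treated arrays. Its differences were -0.28 and -0.40, with limma adjusted p of 0.577 and 0.412.

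All 6 measured orphan and atypical receptors were tested. In each contrast 2 rose and 2 fell, and with the block 4 rose and 2 fell. Of all genes tested 6.94% and 6.65% passed with scrambled and CD24 siRNA, or 23.3% and 22.4% with the block. Those that fell were Gpr176, picked for its fall, and Gpr85, tested only through its higher vehicle arrays. Both falls were thus favoured by selection. Gprc5b, an orphan of the class C family whose genes were first found as induced by retinoic acid (probe set 17495610), read 10.0, 9.94 and 10.2 with vehicle, 11.9, 12.1 and 12.0 with scrambled siRNA plus inducers, and 11.9, 12.0 and 12.0 with CD24 siRNA plus inducers. The gap between the lowest treated and the highest vehicle array was many times the range within a group. The differences were 1.97 ± 0.11 (SE; 3.91-fold higher, limma adjusted p 3.42e-05) and 1.90 ± 0.11 (3.72-fold higher, adjusted p 4.05e-05). Leaving out any 1 array kept both calls, with differences between 1.85 and 2.04.

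Its family member Gprc5a read 9.19, 7.63 and 7.45 with vehicle, 9.89, 9.26 and 9.40 with scrambled siRNA, and 9.52, 9.27 and 9.22 with CD24 siRNA. Vehicle replicate 1 alone came close to the treated arrays. The differences were 1.42 (2.68-fold, limma adjusted p 0.0678, blocked 0.00335) and 1.24 (2.37-fold, adjusted p 0.105, blocked 0.00659). Without vehicle replicate 1 the difference with scrambled siRNA was 1.97, with a limma adjusted p of 0.00214. That array was singled out by its value, as the vehicle array nearest the treated ones, so this fit is no independent support.

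Ackr3, an atypical receptor that binds the chemokine CXCL12 and removes it without classical G protein signalling (probe set 17215605), read 7.33, 7.39 and 7.78 with vehicle, 8.64, 8.27 and 8.77 with scrambled siRNA, and 8.71, 8.27 and 8.79 with CD24 siRNA. No treated array reached down to the vehicle arrays. The differences were 1.06 ± 0.19 (SE; 2.08-fold higher, limma adjusted p 0.0142) and 1.09 ± 0.19 (2.13-fold higher, adjusted p 0.013). The first call was lost without scrambled replicate 3 (adjusted p 0.062), and the second without the array labelled CD24 siRNA replicate 1 or 3 (largest 0.0577). On all 9 arrays the blocked limma adjusted p was 0.000309 with scrambled siRNA and 0.000287 with CD24 siRNA.

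Gpr176, an orphan known from the brain's circadian clock, read 9.70, 9.26 and 9.27 with vehicle, 7.59, 7.33 and 7.32 with scrambled siRNA, and 7.59, 7.22 and 7.34 with CD24 siRNA. Replicate 1 was highest in every group, and the vehicle arrays were far above the rest. Its differences were -2.00 (3.99-fold lower) and -2.03 (4.07-fold lower). Gpr85, a conserved orphan best known from brain (probe set 17464922), read 6.78, 6.83 and 6.67 with vehicle, 6.09, 6.17 and 6.15 with scrambled siRNA, and 6.16, 6.34 and 6.04 with CD24 siRNA. Vehicle arrays were just above the table's median and treated arrays below it. The differences were -0.62 ± 0.11 (SE; 1.54-fold lower, limma adjusted p 0.0121) and -0.58 ± 0.11 (1.50-fold lower, adjusted p 0.0164). Since this gene was tested only through its vehicle arrays, that direction was built into its testing; the calls were lost without scrambled replicate 3 (adjusted p 0.0513), and without the array labelled CD24 siRNA replicate 1 or 3 (largest 0.0604) or with the compared groups alone (0.0517).

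Gpr153, a further orphan, read 8.22, 7.87 and 8.69 with vehicle, 8.98, 8.78 and 8.83 with scrambled siRNA, and 8.94, 8.68 and 8.80 with CD24 siRNA. Vehicle replicate 3 lay close to the treated arrays. Its differences were 0.60 (limma adjusted p 0.0943, blocked 0.0177) and 0.54 (adjusted p 0.129, blocked 0.0288). The blocked calls were lost without replicate 1 or without replicate 2 of all groups (largest adjusted p 0.209).

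**Figure D3:**
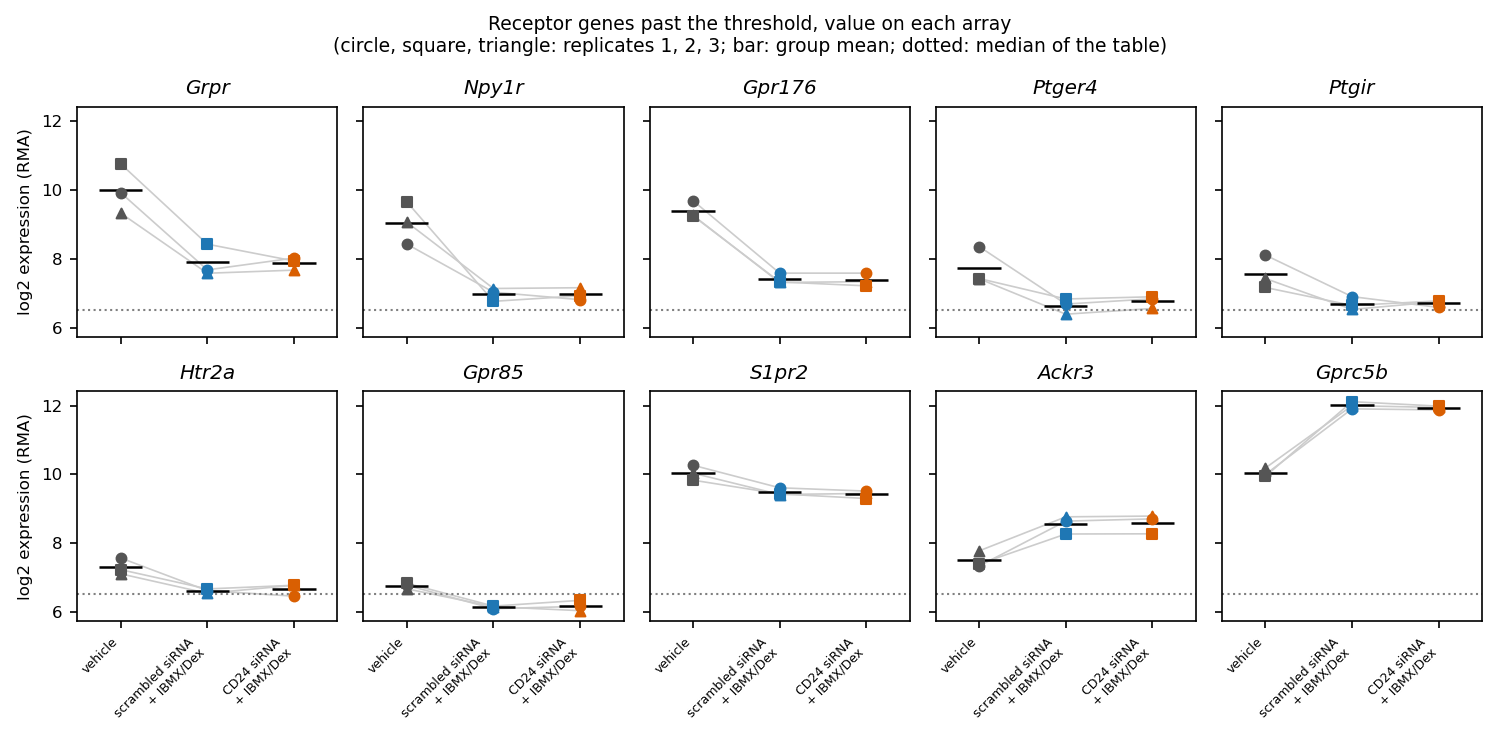
Log2 expression on each array for the 10 receptor genes with an adjusted p under 0.05 in a contrast against vehicle (circle, square and triangle are replicates 1, 2 and 3; bar, group mean; grey lines join arrays of the same number; dotted line, table's median of 6.51). In 8 panels the vehicle arrays are above all treated arrays, and in those of Ackr3 and Gprc5b they are below; Grpr, Npy1r and Gpr176 were chosen on this contrast.

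Read by the G protein a receptor is best known to use, both tested Gs-coupled receptors, Ptger4 and Ptgir, fell with scrambled siRNA plus inducers. Of the 9 fits that each omitted 1 array, 5 no longer called Ptger4 and 8 no longer called Ptgir. With CD24 siRNA plus inducers neither passed without the block (limma adjusted p 0.0512 and 0.0511), while both passed with it. The other Gs-coupled members on the table, Ptger2, Pth1r, Mc2r and Tshr, were below the filter. The picked genes and Gpr85 are left out of the counts that follow. Of 10 tested Gq-coupled members Htr2a fell and none rose. Of 2 tested Gi-coupled members neither passed, and with the block S1pr1 rose. Of the 7 others, which use other G proteins or have no settled partner, 2 rose and 1 fell, or 4 and 2 with the block. These counts are for scrambled siRNA against vehicle, where 6.94% of all genes tested passed, or 23.3% with the block. These counts are too small to set the classes against each other, and no test of that was made.

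The proteins that act just downstream of the receptors are G proteins, receptor kinases and arrestins. Of 34 listed genes for them, 31 were on the table and 24 were tested; none passed with scrambled siRNA plus inducers, and 1 rose with CD24 siRNA plus inducers, where 6.94% and 6.65% of all genes passed. That was Arrb1, beta-arrestin 1, which uncouples active receptors and read 9.74, 9.17 and 9.09 with vehicle, 9.84, 10.2 and 9.95 with scrambled siRNA, and 10.2, 10.2 and 9.91 with CD24 siRNA. Its differences were 0.65 (limma adjusted p 0.0643) and 0.75 (adjusted p 0.0406). Under the blocked fit 2 rose and 1 fell with scrambled siRNA: Gnao1 (0.49, adjusted p 0.0125) and Arrb1 (adjusted p 0.0155) up, and Gng12 (-0.31, adjusted p 0.0413) down. With CD24 siRNA the block gave 2 up, again Gnao1 and Arrb1, and 4 down, namely Gnai2, Gna13, Gnb1 and Gng12, with differences from -0.35 to -0.28, in a fit where 22.4% of all genes passed. The median size of the difference over the 24 was 0.20 with scrambled siRNA.

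Receptors that share a ligand family with the members but are not among them were mostly dim. Of 41 listed, 35 were on the table and only 9 passed the filter; none passed the threshold in either contrast. With the block Lpar2, a further lysophosphatidic acid receptor, fell by 0.39 in both contrasts (adjusted p 0.0441 and 0.0459).

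No receptor differed detectably between CD24 siRNA and scrambled siRNA under the same inducers. None of the 25 passed the threshold with limma, in either fit, where 0% of all genes tested passed. At an unadjusted p under 0.05 the count was 0 of 25 in both fits, against 30 of 12630 genes without the block and 219 with it. Differences ran from -0.20 for S1pr3 to 0.20 for Lpar4, with 11 above zero and 14 below, and a median size of 0.07 over the 25 and 0.06 over all genes tested. Arrays of both groups overlapped for every one of the 25, while 0.879% of all genes tested were higher and 1.54% lower without overlap.

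The precision of that comparison differed between receptors. The 95% interval reached a median of 0.43 to either side of the difference, or 0.27 with the block, and from 0.196 to 0.904 over the 25 receptors without it. The widest bounds were -1.08, for Gprc5a, and 0.88, for Lpar4, so a change of 2-fold, which is 1 on this scale, was outside the interval of all but Gprc5a. These intervals include the array labelled CD24 siRNA replicate 3, whose Cd24a difference from its scrambled partner was only -0.10. Cd24a itself had an interval of -1.87 to 0.06. The intervals therefore bound the difference between the groups as labelled, and a 2-fold effect of losing CD24 is not excluded. Once the array labelled CD24 siRNA replicate 3 was removed, differences ran from -0.19 (F2r) to 0.25 (Ptgfr), with no unadjusted p under 0.05 among the 25. With the block and without that array they ran from -0.31 (Gprc5a) to 0.26 (Ptgfr), and 1 receptor, S1pr3, had an unadjusted p of 0.0472 with an adjusted p of 1.

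**Figure D4:**
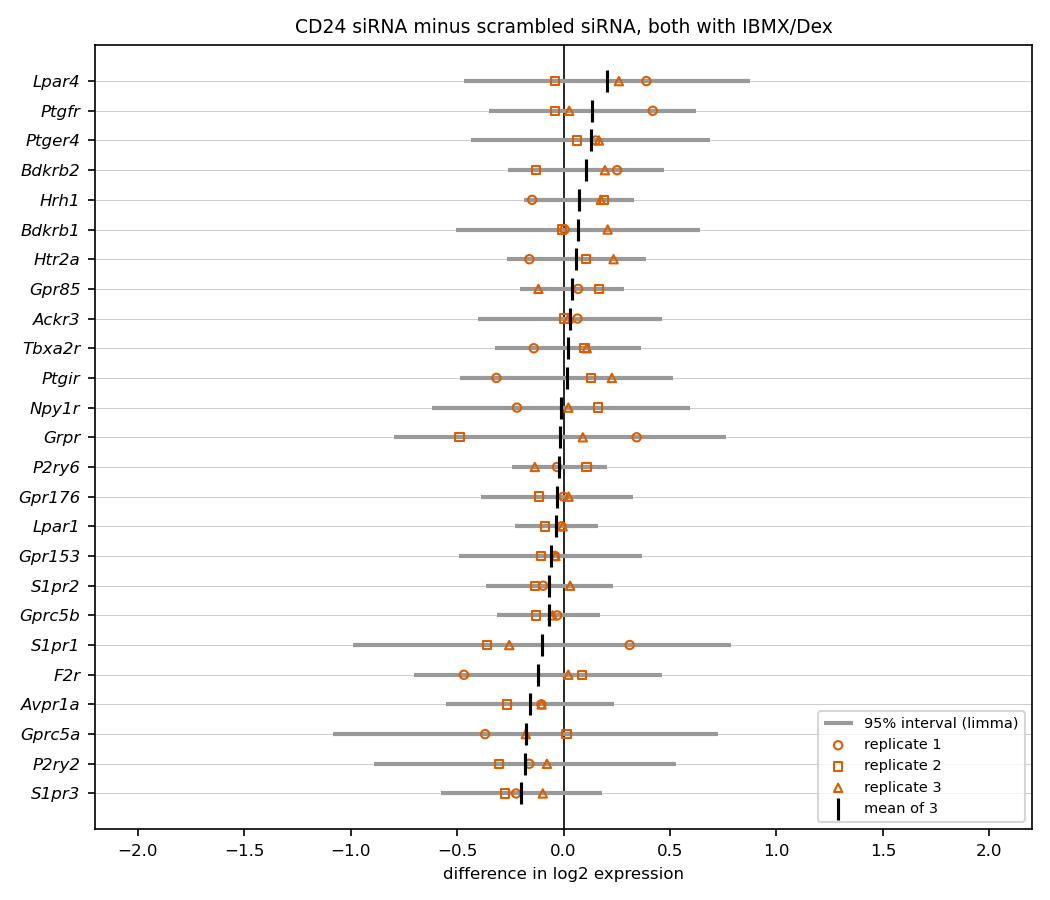
Difference in log2 expression between CD24 siRNA and scrambled siRNA, both with IBMX/Dex, for the 25 tested receptor genes (open symbols, same-numbered differences of replicates 1 to 3; bar, mean; grey line, limma 95% interval). Means run from -0.20 to 0.20, and every interval includes zero.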

How the data were processed

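Total RNA of 9 samples of 3T3-L1 cells was hybridised to gene arrays. The deposited table holds log2 expression per probe set, made by the authors with RMA in oligo, per the submitters' processing notes; their versions are not given in the sources read here. RMA makes the arrays' distributions alike and compresses low signals. Of 41345 probe sets, 23521 had 1 gene symbol, 1814 several and 16010 none in the platform annotation; only the first were used, and the brightest per gene was kept. Genes with fewer than 3 values at or above the table's median (6.51) were not tested. The remaining 12630 genes were fitted with limma 3.58.1 in R 4.3.3 (lmFit, eBayes) over all 9 arrays without a block, with Benjamini-Hochberg adjustment over all of them; the code was tested on simulated data. The number of arrays limits the precision: the 95% interval reached a median of 0.341 to either side.

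The members and gene lists were chosen with earlier results of these data known. Members with all 9 values given are those with an adjusted p under 0.05 against vehicle and same-numbered differences of the mean's sign, plus those called with the block, and Ptgfr, which were chosen after their values were seen; Gnao1, Gng12, Gnai2, Gna13, Gnb1 and Lpar2 were likewise named after theirs were seen. Replicate numbers come from the sample titles. Deviations from group means correlated between same-numbered arrays at 0.377 to 0.732 and between others at no more than 0.116. Each of the 9 arrays correlated best with its own number. The numbers were therefore taken as pairs in the blocked fit and in the same-numbered differences. The main fit left the pairing out, so its p-values and intervals include the scatter between replicate numbers. Its median 95% interval reached 0.341 to either side, against 0.253 with the block. Alternatives were the replicate block, other filters and probe set rules, centring, the compared groups alone, and leaving out each array. Promoter windows came from RefSeq (GRCm38.p6) by symbol, for 39 of the 51 members; no genome build is named for the arrays in the labels.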

Additional observations from a re-analysis of the deposited data

How the results depend on the processing

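Of 870 recomputed receptor differences, 761 kept their side of the threshold, 53 came to pass it and 56 no longer passed. They cover only the receptors that passed against vehicle in the main or the blocked fit, in every contrast. Between CD24 and scrambled siRNA no receptor passed under any setting, so all differences of that contrast are among the 761. The 761 are thus no measure of how stable the calls against vehicle were. None that passed in the main or the recomputed fit reversed its direction. Those that passed in neither were compared by size alone, so small ones may have changed sign. Receptor counts in this paragraph include Grpr, Npy1r and Gpr176. With the block for the pairing by replicate number, genes past the threshold went from 876 to 2942 with scrambled siRNA and from 840 to 2831 with CD24 siRNA, and receptors from 10 to 14 and from 8 to 14; beyond the calls given beside their genes it changed no other call. When the array labelled CD24 siRNA replicate 3 was dropped from the blocked fit, the genes numbered 2924 and 1763 and the receptors with CD24 siRNA 14. With the block and without replicate 1, 2 or 3 of all groups, an alternative chosen after seeing the data, the genes were 1351, 1792 and 1758 with scrambled siRNA and 1299, 1755 and 1528 with CD24 siRNA, and the receptors 13, 13 and 14 with scrambled siRNA and 11, 13 and 15 with CD24 siRNA. Fitting the compared groups alone gave 389 and 461 genes, and 6 and 5 receptors. Testing only genes that reach the table's 75th percentile, which leaves fewer genes, gave 6 receptors with scrambled siRNA. Leaving out 1 array gave 313 to 852 genes and 4 to 10 receptors with scrambled siRNA, and 321 to 857 genes and 4 to 8 receptors with CD24 siRNA; the genes were 496, 472 and 313 without scrambled replicates 1, 2 and 3, 485 without vehicle replicate 3 and 581 without CD24 siRNA replicate 2 in the first contrast, and 359, 369 and 321 without CD24 siRNA replicates 1, 2 and 3 and 458 without vehicle replicate 3 in the second. CD24 siRNA against scrambled siRNA gave 0 under each of these settings. Beyond fewer samples or genes, the cause was not tested. Dim probe sets near the table's median limit what can be seen of the receptors below it.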

Other observations

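Of the probe sets shared with a neighbouring gene, those of Lpar6 and Rb1 had group means of 7.84 (vehicle), 8.33 (scrambled siRNA) and 8.32 (CD24 siRNA) for one and 7.22, 7.30 and 7.07 for the other. Those of Gpr39 and Lypd1 had 5.92, 5.78 and 5.91, and 6.18, 6.54 and 6.37. In no case did all treated arrays lie above all vehicle arrays, and which of the 2 genes a probe set reports is not known.

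Among the 25 tested receptors, deviations from the group means correlated between same-numbered arrays at 0.495 to 0.854 and between arrays of different number at -0.666 to 0.0832, across genes, which are not independent replicates. Of the 39 measured receptors, 16 (41%) had exactly the same value on more than 1 array, as had 38.7% of all genes.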
